A study of Mus musculus with 3 samples.

Results

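The genes described here encode the core histones H2A, H2B, H3 and H4 and the linker histone H1, measured with Affymetrix microarrays in CT26, a mouse colon carcinoma cell line. A probe set was taken as a member when every gene symbol of it had a histone name of a given form. The forms were the older names Hist1h to Hist4h and the newer names H1f, H2ac, H2bc, H3c or H4c. This gave 58 of the 35556 probe sets on the array, naming 58 histone genes, of which 34 probe sets were listed under 1 gene and 24 under several. The choice used names and no measured value. 11 of the 58 were found through the gene's older name in RefSeq (7 H2B probe sets of several genes and H2aw, H2bu2, H2bu1-ps and H4f16).

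The 3 groups were miR-Ctrl (a control microRNA, here Ctrl), miR-17~92Med (a medium level of the transfected microRNA cluster, Med) and miR-17~92Hi (a high level, Hi). In each group, CT26 cells had taken up a PIG vector stably, were kept in puromycin, sorted by their GFP and cloned by dilution. They grew in medium with 10% fetal bovine serum. The design text speaks of 3 subclones per group, but a group has 1 column of values. No source used here says if that is 1 subclone, pooled RNA or a mean. There was therefore no replicate, and no SD, SE, interval or test could be given for any value below. Values are log2 levels as deposited, and a difference of 1 or more in log2 is called 2-fold.

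Core histones form the protein spool around which DNA is wound in the nucleosome, and H1 binds the DNA between nucleosomes. Most of their genes lie in clusters, exist in many near-identical copies and are switched on as cells copy their DNA in S phase. The mRNAs of these S phase genes mostly end in a stem-loop in place of a poly(A) tail. Such mRNAs are bound by the stem-loop binding protein Slbp, and are destroyed when DNA synthesis ends. Which members make mRNAs of this kind in these cells was not tested. The RNA was amplified here with random primers, per the labels' protocols, a step that does not depend on a poly(A) tail.

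The control column stood apart from the other 2 across the array. Of the 23410 probe sets with a gene symbol, 35.5% were 2-fold apart between Med and Ctrl and 33.8% between Hi and Ctrl, against 0.842% between Hi and Med. The middle 50% of these probe sets spanned 1.97 log2 units in Ctrl against 3.18 in Med and 3.10 in Hi. Both comparisons with Ctrl use the same Ctrl column. Olfactory and vomeronasal receptor probe sets (1212) served as a gauge of background, and their 95th percentile (the receptor level below) was 6.87 in Ctrl against 6.18 in Med and 6.20 in Hi. Of 10 epithelial and colon markers, 5 exceeded that level in Ctrl and 6 in Med and in Hi. Among the 23410 probe sets with a symbol, 14020 did so in Ctrl, 14982 in Med and 14974 in Hi. Compared with Ctrl, 1 of the 10 markers was 2-fold higher and 4 (Med) or 3 (Hi) were 2-fold lower. Of all probe sets listed under 1 gene, 19.4% (Med) and 18.5% (Hi) were 2-fold higher, and 16.3% and 15.4% lower. Krt18, an epithelial keratin, was at 7.97 in Ctrl and at 11.41 and 12.28 in Med and Hi, while Epcam, Cdx2, Krt20 and Vil1 did not exceed the receptor level in any column. Krt8, the partner of Krt18, was at 8.92, 7.28 and 7.32, and Cdx1, an intestinal transcription factor, at 8.95, 7.24 and 7.45, both lower than Ctrl and over the receptor level.

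As a group, the histone probe sets lay near the array as a whole in their median difference and in their share of 2-fold lower members. Of the 58, 5 were 2-fold higher in Med than in Ctrl (8.62%) and 9 were 2-fold lower (15.5%), beside 19.8% higher and 15.7% lower among all probe sets with a symbol. The same 5 and the same 9 were 2-fold apart between Hi and Ctrl, beside 19% higher and 14.8% lower. The median difference of the 58 was -0.17 for Med minus Ctrl and -0.16 for Hi minus Ctrl, beside -0.15 for both over all probe sets with a symbol. All 14 members 2-fold apart were listed under 1 gene. They made up 41.2% of the 34 such members, beside 35.7% (Med) and 33.9% (Hi) of all probe sets listed under 1 gene. By direction, 14.7% of the 34 were higher and 26.5% lower in both comparisons. Among all probe sets listed under 1 gene, 19.4% were higher and 16.3% lower in Med, and 18.5% and 15.4% in Hi.

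**Figure D1:**
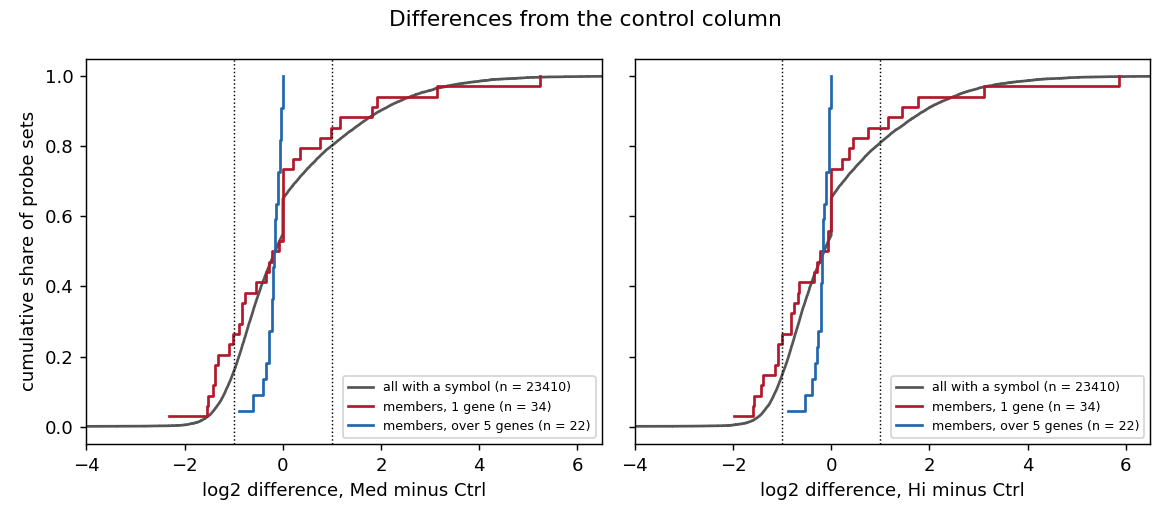
Cumulative share of probe sets (vertical axis) at or below each log2 difference (horizontal axis), Med minus Ctrl on the left and Hi minus Ctrl on the right, for all probe sets with a symbol (grey), histone members of 1 gene (red) and members of over 5 genes (blue); dotted lines mark 2-fold. The red steps follow the grey curve with a larger share below -1, and the blue steps all lie between -0.88 and 0.

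In that plot of differences, the single-gene members ran from -2.32 to 5.24 for Med minus Ctrl and from -1.98 to 5.86 for Hi minus Ctrl. By class, 1 of 8 H1 members was 2-fold higher and 3 were 2-fold lower in both comparisons. The counts were 2 and 0 of 5 for H2A, 2 and 4 of 11 for H2B, 0 and 0 of 3 for H3, and 0 and 2 of 7 for H4. The higher members were H2bc4, H1f2, H2ac4, H2bc3 and H2ac15. The lower ones were H4c3, H2bc1, H1f6, H4c14, H2bc9, H2bc14, H1f1, H2bu1-ps and H1f7.

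The counts depended on how the columns were scaled. Centring each column on its median over all probe sets raised every difference by 0.30 (Med) and 0.29 (Hi). It gave 7 members higher and 7 lower in Med (background 23.5% and 6.69%), and 6 and 5 in Hi (22.6% and 5.96%). Quantile normalization gave 4 higher and 26 lower in Med (15.1% and 15.6%), and 3 and 25 in Hi (14.8% and 14.9%). Centring on the probe sets with a mean level over 7.16, chosen after seeing the data, gave 4 and 20 in Med (12.8% and 43.8%) and 3 and 17 in Hi (12.5% and 41.5%). Across the deposited values, these 3 scalings and a floor at the receptor level, H2bc4 and H1f2 stayed 2-fold higher in both Med and Hi. H4c3, H2bc1, H1f6, H4c14 and H2bc9 stayed 2-fold lower in both.

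Promoters are shown as examples for 3 of the members higher than Ctrl (H1f2, H2bc3 and H2ac4) and 3 of the lower ones (H1f6, H2bc14 and H2bc9). Each is the 200 bases before the annotated start of the gene, 5' to 3' on the gene's strand, from RefSeq GRCm38.p6. Capitals mark matches on either strand to the octamer ATTTGCAT (reverse ATGCAAAT), the CCAAT box CCAAT (reverse ATTGG), the TATA motif TATAAA and the H1 box AAACACA (reverse TGTGTTT). These are elements known from histone promoters, and a match is a description of the letters and not of a bound site.
H1f2, chr13:23738607-23738806, plus strand: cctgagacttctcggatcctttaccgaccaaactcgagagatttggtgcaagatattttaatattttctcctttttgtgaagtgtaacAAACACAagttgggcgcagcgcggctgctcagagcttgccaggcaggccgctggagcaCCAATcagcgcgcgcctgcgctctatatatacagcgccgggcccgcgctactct
H2bc3, chr13:23746534-23746733, plus strand: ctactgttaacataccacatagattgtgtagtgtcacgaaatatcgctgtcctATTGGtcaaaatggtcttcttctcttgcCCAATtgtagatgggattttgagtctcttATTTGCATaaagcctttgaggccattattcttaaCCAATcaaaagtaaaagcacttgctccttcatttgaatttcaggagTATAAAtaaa
H2ac4, chr13:23750888-23751087, plus strand: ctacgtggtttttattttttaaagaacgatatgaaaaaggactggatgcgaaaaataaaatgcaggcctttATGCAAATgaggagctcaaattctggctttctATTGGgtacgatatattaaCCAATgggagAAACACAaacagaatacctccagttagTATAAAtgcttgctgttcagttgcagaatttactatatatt
H1f6, chr13:23695611-23695810, plus strand: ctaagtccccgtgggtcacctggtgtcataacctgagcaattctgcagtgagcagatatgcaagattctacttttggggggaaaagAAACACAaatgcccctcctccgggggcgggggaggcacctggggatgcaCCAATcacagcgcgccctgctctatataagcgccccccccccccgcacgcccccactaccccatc
H2bc14, chr13:21721844-21722043, plus strand: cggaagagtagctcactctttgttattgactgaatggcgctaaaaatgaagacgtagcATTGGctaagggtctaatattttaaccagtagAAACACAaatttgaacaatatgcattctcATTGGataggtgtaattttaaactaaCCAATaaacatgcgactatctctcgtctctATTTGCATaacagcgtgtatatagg
H2bc9, chr13:23543445-23543644, minus strand: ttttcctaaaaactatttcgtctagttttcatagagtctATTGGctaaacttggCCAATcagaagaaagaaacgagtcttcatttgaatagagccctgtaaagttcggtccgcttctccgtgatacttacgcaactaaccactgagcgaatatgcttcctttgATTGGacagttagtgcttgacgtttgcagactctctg

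Of the 34 single-gene members, 29 had a promoter in the RefSeq table. H2bc4, H2bc21, H2bu1-ps, H3c7 and H4c14 had none. The counts below therefore leave out H2bc4, the member with the largest difference from Ctrl. The octamer, a binding element of POU factors such as Oct-1, was in 9 of the 29 (31%) and in 453 of all 32851 promoters (1.38%). It was in 4 of 5 H2A and 5 of 8 H2B promoters, and in 0 of the 8 H1, 2 H3 and 6 H4 promoters. The windows of H2ac8 and H2bc8 overlap on opposite strands, as do those of H2ac1 and H2bc1. Each of these pairs shares a single octamer site, which was counted for both genes, so these counts are not of separate sites. The CCAAT box was in 22 of 29 (75.9%) beside 29.3% of all promoters, and TATAAA in 13 of 29 (44.8%) beside 9.96%. The H1 box was in 7 of 29 (24.1%) beside 4.8%, with 4 of these among the 8 H1 promoters. Members 2-fold higher and lower than Ctrl both held these elements. The octamer was in 2 of the 4 higher members with a promoter and 2 of the 7 lower ones, CCAAT in 4 of 4 and 6 of 7, and the H1 box in 2 of 4 and 3 of 7. H1f2 and H1f6 each held 1 H1 box and 1 CCAAT box while their differences from Ctrl had opposite signs. Of the lower members not shown, H2bc1 held all of these elements, H1f1 CCAAT and TATAAA, H4c3 CCAAT alone and H1f7 none. The higher member not shown, H2ac15, held CCAAT alone.

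Among the linker histones, H1f2 (older name Hist1h1c), a somatic H1, was 2-fold higher than Ctrl. Its level was 7.30 in Ctrl against 10.44 in Med and 10.42 in Hi, which is 8.81-fold and 8.66-fold above Ctrl. The Med and Hi values lay 0.03 apart and the Ctrl value lay far below both. H1f5, another somatic H1, was at 9.87, 10.08 and 10.08, a difference of 0.21 that turned to -0.94 and -0.90 under quantile normalization. H1f3 (6.14) and H1f10 (8.85) each held the same value in all 3 columns, and H1f3 did not exceed the receptor level in any. A probe set shared by H2bc6 and H1f4 was at 7.99 throughout.

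Other H1 members were lower than Ctrl. H1f6, the testis H1 called H1t, was at 7.51 in Ctrl against 5.98 in Med and 5.94 in Hi, differences of -1.53 and -1.56. Its Ctrl value exceeded the receptor level of that column and its Med and Hi values did not. H1f1, a somatic H1, was at 8.71, 7.40 and 7.63, and its difference of -1.09 in Hi was -0.80 with centred columns. H1f7, the H1 of elongating spermatids, was at 8.17, 7.16 and 7.16, which is 2.01-fold lower, and its log2 differences were -0.71 and -0.72 with centred columns. H1f8, the oocyte H1, was at 6.38, 6.15 and 6.15, at or under the receptor level in each column.

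In the deposited values, the 3 H2A members with the largest differences upward were H2ac4, H2ac15 and H2aw. H2ac4 was at 6.54 in Ctrl against 8.46 in Med and 7.98 in Hi, differences of 1.92 and 1.44. Its Ctrl value was under the receptor level and its Hi value lay between the other 2. With columns centred on probe sets over the level filter, the Hi difference of H2ac4 was 0.83. H2ac15 was at 10.30, 11.46 and 11.46, a difference of 1.16 that became -0.12 and -0.08 under quantile normalization. H2aw (older name Hist3h2a), from the small cluster on chromosome 11, was at 10.53, 10.88 and 10.88. Its difference of 0.35 turned to -0.94 and -0.89 under quantile normalization, and a probe set listed under H2aw and Trim17 was at 7.84, 7.49 and 7.49. H2ac8 was at 4.74, 4.74 and 4.67, under the receptor level throughout.

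In H2B, H2bc4 (older name Hist1h2bc) was 2-fold higher than Ctrl in both columns. Its level was 4.74 in Ctrl against 9.98 in Med and 10.60 in Hi, 37.8-fold and 58.2-fold above Ctrl. The Ctrl value lay under the receptor level, so these folds rest on a value within the background. With every value raised to at least its column's receptor level, the differences of H2bc4 were 3.11 and 3.74, beside 3.14 and 3.11 for H1f2. H2bc3 was at 8.62, 10.44 and 10.38, differences of 1.82 and 1.77 that were 0.93 and 0.92 under quantile normalization. H2bc8 was at 7.01, 7.76 and 7.76, and its difference of 0.75 reached 1.05 (Med) and 1.04 (Hi) with centred columns. H2bc21 (older name Hist2h2be), on chromosome 3, was at 6.69, 7.68 and 7.14. That placed Hi between Ctrl and Med, and the Ctrl value was under the receptor level.

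The other single-gene H2B members were lower than Ctrl or equal to it. H2bc14 was at 11.61 in Ctrl against 10.23 in Med and 10.47 in Hi, and its Hi difference of -1.14 was -0.86 with centred columns. H2bc9 was at 11.22, 9.83 and 9.83, a difference of -1.38. Both genes had Med and Hi close together and below Ctrl. H2bc1, the testis H2B, was at 8.52, 6.99 and 6.94, differences of -1.54 and -1.59. H2bc22 was at 7.04, 6.28 and 6.28, and H2bc18 was at 8.23 in all 3 columns. The Hist3 genes of H2B were both lower than Ctrl: H2bu2 was at 6.88, 5.98 and 6.20, and H2bu1-ps at 8.28, 7.19 and 7.19. The differences of -1.09 for H2bu1-ps were -0.80 and -0.81 with centred columns.

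Single-gene H3 probe sets were few and differed little. H3c4 was at 7.70, 7.63 and 7.63, H3c15 at 5.91, 5.62 and 5.62, and H3c7 at 4.16 in each column. H3c15 and H3c7 were under the receptor level throughout.

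In H4, no single-gene member was higher than Ctrl in the deposited values. H4c3 (older name Hist1h4c) was at 9.81 in Ctrl against 7.49 in Med and 7.83 in Hi, 4.99-fold and 3.95-fold lower. Both values lay well below Ctrl, with Hi 0.34 above Med. H4c14 (older name Hist2h4), on chromosome 3, was at 12.84, 11.41 and 11.41, a difference of -1.43. H4f16 (older name Hist4h4) was at 10.40, 9.57 and 9.57, H4c6 at 10.66, 10.11 and 10.00, and H4c9 at 6.80, 6.45 and 6.45. H4c4 (12.36) and H4c8 (6.92) each held 1 value in all 3 columns. They turned positive (0.30 and 0.29) with centred columns, and H4c4 fell by 1.19 (Med) and 1.16 (Hi) under quantile normalization.

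**Figure D2:**
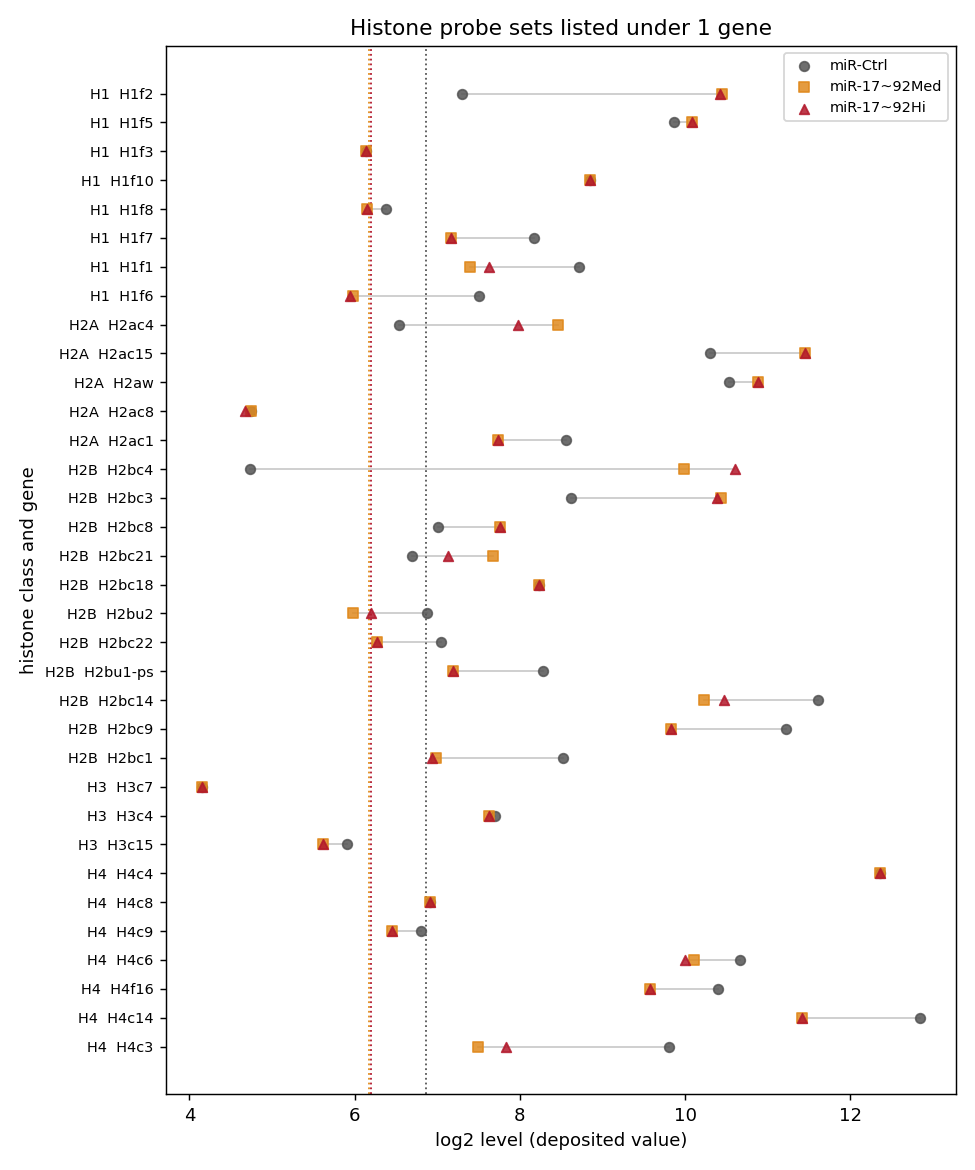
Deposited log2 level (horizontal axis) of each of the 34 histone probe sets listed under 1 gene (vertical axis, by class) in Ctrl (grey circle), Med (orange square) and Hi (red triangle); dotted lines mark the receptor 95th percentile of each column. Med and Hi markers overlap for most genes, with H2bc4 and H1f2 far to the right of Ctrl and H4c3 to the left.

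The plot of single-gene levels also shows the germ cell members H1f6, H1f7, H2bc1 and H2ac1 to the left of Ctrl in Med and Hi. H2ac1, the testis H2A, was at 8.55 in Ctrl and 7.73 in both other columns. Markers of other cell types were lower as well. All 15 probe sets of immune, endothelial, fibroblast and germ cell markers were lower than Ctrl in Med and in Hi, with medians of -0.82 and -0.94. Among all 21789 probe sets listed under 1 gene, 12084 (Med) and 12034 (Hi) were lower than Ctrl. Of the 15, 6 and 7 were 2-fold lower (40% and 46.7%), beside 16.3% and 15.4% of all probe sets listed under 1 gene. The median level of the 15 was 6.57 in Ctrl against 5.76 in Med and 5.71 in Hi. The receptor level was exceeded by 7, 6 and 6 of the 15. Of the 23410 probe sets with a symbol, 14020, 14982 and 14974 exceeded it. Prm1, a sperm protamine, was at 8.81, 6.99 and 6.99. Tnp1, another germ cell marker, was at 7.01, 5.77 and 5.84, over the receptor level in Ctrl only. The germ cell markers Ddx4, Dazl and Sycp3 stayed under the receptor level, and receptor probe sets themselves had medians of -0.39 (Med) and -0.38 (Hi). The part of this shift in the lower germ cell histones was not tested.

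Probe sets listed under over 5 histone genes had smaller differences than many single-gene ones. There were 22 of them: 7 for H2B (14 or 15 genes each), 10 for H3 (12 genes) and 5 for H4 (11 genes). Such a probe set cannot say which copy gave the signal. Of the 34 genes with a probe set of their own, 15 also stood in 1 of these lists (7 of 11 H2B, 3 of 3 H3 and 5 of 7 H4). A single-gene probe set may therefore also take signal from near-identical copies, which was not tested.

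The 22 shared probe sets ranged from 12.28 to 13.61 in Ctrl, from 12.06 to 13.48 in Med and from 12.07 to 13.48 in Hi. The highest value of any probe set on the array was 14.85, 14.81 and 14.76 in the 3 columns. In the deposited values, 20 of the 22 were below Ctrl in both Med and Hi and 2 were equal to it. The largest of these differences was -0.88, in an H2B set, so 0 were 2-fold lower. Among all 23410 probe sets with a symbol, 12818 (Med) and 12768 (Hi) were also below Ctrl. The 22 are not separate readings. Within a class they list the same or nearly the same genes, and the 22 hold 20 distinct sets of values. The median difference of both Med and Hi from Ctrl was -0.34 for H2B, -0.10 for H3 and -0.17 for H4.

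This direction depended on scaling. With centred columns, 18 of the 22 were above Ctrl in both Med and Hi (10 of 10 H3, 5 of 5 H4 and 3 of 7 H2B). Under quantile normalization all 22 were below Ctrl, 13 of them 2-fold in Med and 12 in Hi, with medians of -1.08 and -1.01. Among all probe sets with a symbol, 15.6% (Med) and 14.9% (Hi) were then 2-fold lower. With columns centred on the probe sets over the level filter, all 22 were below Ctrl and 4 (Med) and 3 (Hi) were 2-fold lower. These were 18.2% and 13.6% of the 22, beside 43.8% and 41.5% of all probe sets with a symbol. Under quantile normalization the class medians were -1.42 and -1.39 for H2B, -0.92 and -0.89 for H3, and between these for H4.

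**Figure D3:**
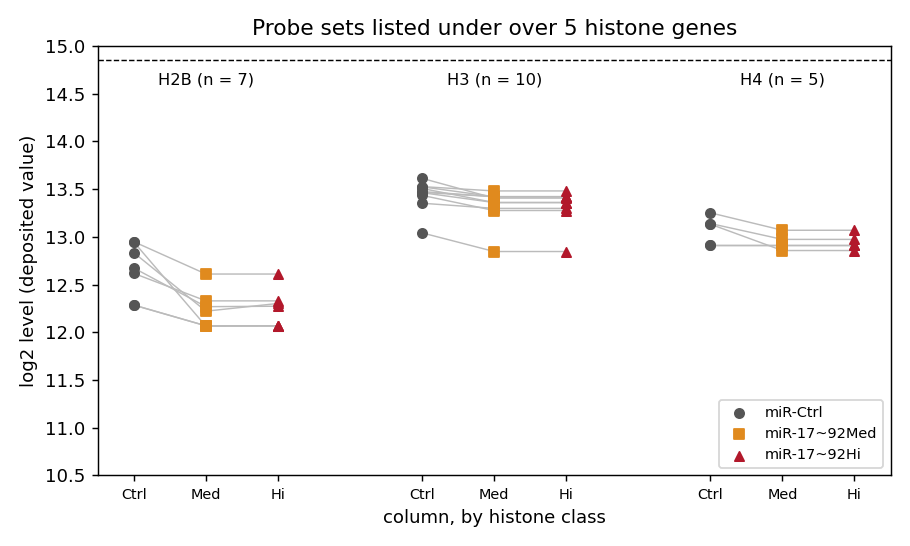
Deposited log2 level (vertical axis, not from 0) of the 22 probe sets listed under over 5 histone genes in Ctrl, Med and Hi (horizontal axis), by class, with a line joining the 3 values of each probe set; the dashed line marks the highest value of any probe set in Ctrl, 14.85. Lines run level or slightly down from Ctrl to Med and level from Med to Hi.

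As the plot of the shared probe sets shows, Med and Hi carried the same values for most of them (19 of 22). A further 2 probe sets of 19 and 20 symbols, mostly H2A genes, fell outside the rule. Both also list genes whose names the rule does not take, such as the variant H2ax. They were at 12.53, 12.14 and 12.14, and at 13.31, 13.04 and 13.04. H2ac4, H2ac8 and H2ac15 are among their genes. The H2A sets thus gave differences of -0.39 and -0.27 where the single-gene H2ac4 and H2ac15 probe sets were 2-fold higher than Ctrl.

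Between Hi and Med the histone probe sets hardly differed, and neither did the array as a whole. Of the 58, 41 held exactly the same deposited value in both columns (70.7%, beside 52.3% of all probe sets with a symbol). Hi was above Med in 9 and below it in 8, and 0 were 2-fold apart, beside 0.842% of all probe sets with a symbol. The equal share was 61.8% in the 34 single-gene members and 86.4% in the 22 shared probe sets. It was 51.7% in all probe sets listed under 1 gene and 69.3% in the receptor probe sets. Equal deposited values were common on this array: 9 members held 1 value in all 3 columns (15.5%, beside 9.37%). Equality of this kind arose before deposit, and no source used here names a step that gives it.

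**Figure D4:**
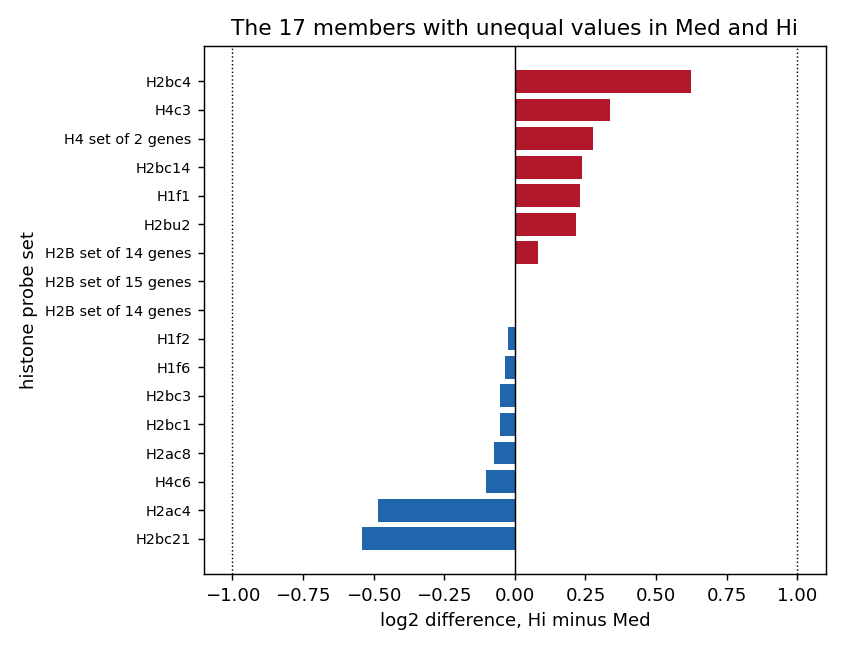
Log2 difference Hi minus Med (horizontal axis) of the 17 histone probe sets whose values differed between the 2 columns (vertical axis); bars to the right (red) are higher in Hi, bars to the left (blue) lower, and dotted lines mark 2-fold. No bar reaches 2-fold, and 2 H2B sets of several genes differ by too little to be seen.

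The largest bars in the plot of Hi minus Med were H2bc4 at 0.62 and H2bc21 at -0.54. H2ac4 followed at -0.49, H4c3 at 0.34 and the probe set shared by H4c17 and H4c11 at 0.28. That probe set was at 5.72, 5.29 and 5.56, under the receptor level in each column. For H2bc4, Hi was farther from Ctrl than Med was. For H4c3, H2ac4 and H2bc21, Hi was nearer to Ctrl than Med was.

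Most single-gene members, 23 of 34, lie in the histone cluster region of chromosome 13. Of these, 5 were 2-fold higher and 6 were 2-fold lower in both Med and Hi than in Ctrl. Together they made up 47.8% of the 23, beside 35.7% (Med) and 33.9% (Hi) of all probe sets listed under 1 gene. Along the gene order, H2bc4 (higher), H1f6 (lower) and H4c3 (lower) followed each other with 0 annotated genes between them. H1f2, H2bc3 and H2ac4, all higher, came next, and H1f1 (lower) after them. The next 2 members in order, H2bc1 and H2ac1, were both lower than Ctrl. Some neighbours thus differed from Ctrl in opposite directions (H2bc4 and H1f6) and others in the same one (H1f6 and H4c3, H2bc3 and H2ac4). The 4 single-gene members on chromosome 3 were H2bc21, H2bc18, H3c15 and H4c14, of which H4c14 was 2-fold lower.

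**Figure D5:**
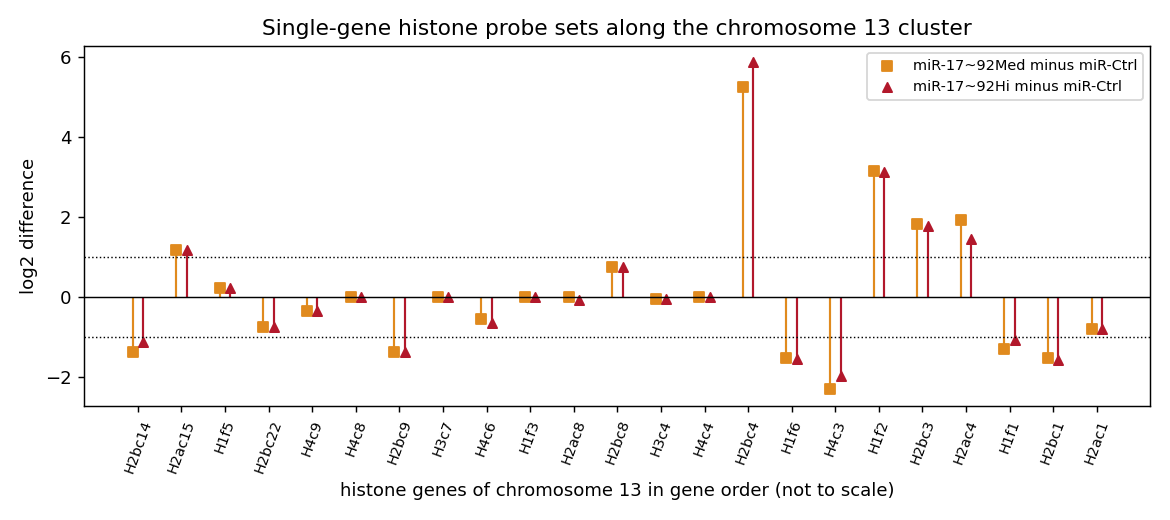
Log2 difference from Ctrl (vertical axis) of the 23 single-gene histone probe sets of chromosome 13, in gene order and not to scale (horizontal axis), for Med (orange squares) and Hi (red triangles); dotted lines mark 2-fold. Both directions occur side by side, with H2bc4 at 5.24 and 5.86 next to H1f6 at -1.53 and -1.56.

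As the plot along chromosome 13 shows, Med and Hi lay close together at each gene. Genes that supply, place or accompany histones were read from lists, with probe sets of 1 gene. Of 25 probe sets for histone mRNA supply and processing, 7 were 2-fold higher and 0 lower in both Med and Hi than in Ctrl (background 19.4% and 16.3% for Med, 18.5% and 15.4% for Hi). Slbp was at 5.58, 8.54 and 8.35 in 1 probe set and at 8.19, 9.02 and 8.75 in another. Eri1, an exonuclease that trims the histone mRNA end, was at 5.49, 9.13 and 8.59. Both genes were higher than Ctrl in Med and Hi, and both had a Ctrl value under the receptor level in at least 1 probe set.

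Npat, the coactivator of histone transcription, was at 5.97 in Ctrl against 8.17 in Med and 7.48 in Hi. Casp8ap2 (FLASH), which works in histone mRNA 3' end processing, was at 6.24, 7.04 and 6.89. The Ctrl values of Npat and Casp8ap2 were under the receptor level. The cleavage factors Cpsf2 and Cpsf1 were at 7.60, 9.97 and 9.79, and at 7.43, 9.47 and 9.47. The list's median difference was 0.56 in both comparisons, beside -0.18 (Med) and -0.17 (Hi) for all probe sets of 1 gene. It was 0.17 (Med) and 0.11 (Hi) with values floored at the receptor level and 0.04 and 0.06 under quantile normalization, and it turned to -0.11 and -0.05 with columns centred on the probe sets over the level filter.

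Of 10 probe sets of histone variants, which are made outside S phase, 2 were 2-fold higher and 0 lower in both comparisons. The background was 19.4% and 16.3% for Med, and 18.5% and 15.4% for Hi. The variants had a median difference of 0 in both comparisons. That median was 0.30 and 0.29 with centred columns and -0.32 and -0.31 under quantile normalization. The 2-fold higher variants were H2az2, at 8.90, 10.76 and 10.76, and the centromeric H3 variant Cenpa, at 8.09, 9.73 and 9.43. H2ax, the variant phosphorylated at DNA breaks, was at 8.12 throughout. H2az1 was at 11.00 throughout in 1 probe set and at 12.23, 11.54 and 11.54 in another. Macroh2a2 was at 6.66, 7.33 and 7.46, with its Ctrl value under the receptor level.

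The replacement H3 variant H3.3 was read by 1 single-gene probe set of H3f3a, at 6.29, 6.23 and 6.23. Probe sets listed under H3f3b and Gm6485 were at 8.92, 11.91 and 11.91, and at 9.06, 12.06 and 12.06. Of 4 probe sets listed under H3f3a and Gm12657, 3 held 1 value in all columns (10.89, 10.90 and 10.93) and the other was at 11.08, 10.66 and 10.66. The H3f3b sets were thus 2.99 above Ctrl in both columns, while the H3f3a sets were equal to Ctrl or up to 0.42 below it.

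Histone chaperones carry histones to DNA. Of 19 probe sets, 8 were 2-fold higher than Ctrl in Med and 8 in Hi, and 0 were lower, beside 19.4% and 18.5% higher among all probe sets of 1 gene. With columns centred on the probe sets over the level filter, 4 were higher and 1 was lower in each comparison. Among all probe sets with a symbol, that centring gave 12.8% (Med) and 12.5% (Hi) higher, and 43.8% and 41.5% lower. Npm1 was at 6.98, 12.31 and 11.96, Atrx at 6.74, 9.89 and 9.70, and Anp32e, the H2A.Z chaperone, at 6.52, 9.22 and 8.97. The Ctrl values of Atrx and Anp32e were under the receptor level. Nap1l4 was at 8.06, 10.39 and 10.43. The S phase chaperones Asf1b and Chaf1a were at 8.08, 9.72 and 9.14, and at 6.89, 7.73 and 7.29. The medians of the list were 0.93 (Med) and 0.62 (Hi), and 0.26 and 0.12 under quantile normalization.

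DNA replication genes showed a like pattern. Of 27 probe sets, 10 were 2-fold higher than Ctrl in Med, 9 in Hi and 0 lower (background 19.4% and 18.5% higher), with medians of 0.65 and 0.56. The higher counts were 7 and 7 under quantile normalization, beside 15.1% and 14.8% of all probe sets with a symbol. They were 8 and 6 with columns centred on the probe sets over the level filter, beside 12.8% and 12.5%. The median was -0.01 and -0.04 under that centring. Pcna, the replication clamp, was at 7.14, 11.66 and 11.22 in 1 probe set and at 7.41, 11.66 and 11.22 in the other. Ccna2 was at 7.18, 10.69 and 9.93, and Rrm1 at 7.59, 10.91 and 10.55. Hi was below Med in 18 of the 27, equal in 9 and above it in 0, with a median of -0.19. In the 34 single-gene histone members the same comparison gave 8 below, 21 equal and 5 above, with a median of 0. Over all 21789 probe sets listed under 1 gene it gave 5221 below, 11255 equal and 5313 above, with a median of 0.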

How the data were processed

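Log2 values of 35556 probe sets were read from the deposited table, with 1 column for each of 3 groups and 0 columns left unmapped. Random primers amplified 100 ng of RNA per sample for an Affymetrix array, per the labels' protocols. The submitters' processing notes name GCRMA and Affymetrix Expression Console without saying what each did. Any background correction and normalization by the authors came before the log2 values were deposited. The log2 base was taken from the range of the values. For arrays, their number limits the precision, and there was 1 column per group.

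Symbols came from the platform annotation, with older names from RefSeq's gene table of GRCm38.p6. Differences of log2 values were computed per probe set, and 2-fold calls were counted beside all probe sets with a symbol (Python 3.11.15, pandas 2.3.3, numpy 2.4.6; tested on simulated data). The alternatives were centred, quantile-normalized and floored columns, a level filter at a mean of 7.16, which 47 of the 58 members passed, 1 value per gene, single-gene probe sets and narrower name rules. Named genes were all H1 members, the 3 highest and 3 lowest differences per core class, the 5 largest differences between Hi and Med, the Hist3, Hist4 and testis members, and up to 4 genes per related list besides fixed ones. The remaining single-gene members are given for completeness. Members and lists were chosen with earlier results of these data known.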

Additional observations from a re-analysis of the deposited data

How the results depend on the processing

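Changing 1 choice at a time gave 72 values, of which 59 kept their size (counts within 1.5 times, medians within 0.1 of the deposited values) and 13 moved. With centred columns, the median of the 58 histone probe sets was 0.12 for Med minus Ctrl and 0.13 for Hi minus Ctrl, the opposite sign to the deposited values, and 5 members were 2-fold lower in Hi. Under quantile normalization the medians were -0.95 and -0.90, with 26 members 2-fold lower in Med, 25 lower in Hi and 3 higher in Hi. With columns centred on probe sets over the level filter, an alternative added after seeing the data, the medians were -0.84 and -0.77, with 20 lower in Med, 17 lower in Hi and 3 higher in Hi. The cause was not tested. The level filter, the receptor floor, 1 value per gene, single-gene probe sets and both narrower name rules moved none of these counts and medians. The name rules were the older-name rule alone, and platform symbols alone, added after seeing the data. For 1 value per gene and for single-gene probe sets the counts could not move, since all 14 members 2-fold apart were listed under 1 gene. Those choices left 40 and 34 members. The 2-fold lower share was 15.5% of the 58 and 26.5% of the 34. With the receptor floor, the median of the 34 single-gene members went from -0.15 to -0.69 (Med) and -0.67 (Hi). These medians equal the gaps between the floors themselves (6.87 in Ctrl, 6.18 in Med and 6.20 in Hi). Any member under the receptor level in every column takes them, as H1f3 and H3c7 did with equal deposited values. The floored medians are therefore no measure of a histone difference. No replicate could be left out, since each group is 1 column. No paired analysis was possible because each group has 1 column. Values at or under the receptor level, such as H2bc4 in Ctrl, limit the folds that rest on them.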
